A study of Mus musculus with 9 samples.

Results

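This account concerns 10 mouse genes of the heat shock and unfolded protein responses: Hspa1b, Hspa5, Hspa8, Hsp90aa1, Hspb1, Dnajb1, Ddit3, Trib3, Hmox1 and Atf4. They were taken from an array that names 18194 genes by a probe set of their own, and every probe set carrying one of the 10 symbols was used, which gave 27 probe sets out of 45101. RNA levels were measured on 9 Affymetrix arrays, with 3 arrays in each of 3 groups. All groups came from Ainv15 (ATCC SCRC-1029) mouse embryonic stem (ES) cells that carry a Dox-inducible Cdx2-V5 construct. The ES group was collected at day 0 without treatment, from cells kept with LIF on mitomycin-treated fibroblasts. The motor neuron (MN) group was collected at day 5 from embryoid bodies given 1 µM retinoic acid and 0.5 µM hedgehog agonist on day 2. The Cdx2/FGF group had the same patterning and, on day 3, basic FGF at 100 ng/ml and doxycycline at 2 µg/ml, which the protocol keeps on the cells for 6 to 8 hours. The protocol also speaks of a wash and of lower concentrations afterwards, without saying which cultures had them. Doxycycline, Cdx2/FGF came together, so their parts cannot be told apart. The labels do not say that the 3 arrays of a group came from separate cultures, so p-values measure the spread between arrays only, and that spread may be technical.

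Cells meet misfolded protein in the cytosol by releasing heat shock factor 1, which binds inverted repeats of a short element and raises chaperones such as Hspa1b, Hspb1, Dnajb1 and, over a high basal level, Hspa8 and Hsp90aa1. In the endoplasmic reticulum (ER), misfolded protein draws the chaperone BiP, the product of Hspa5, away from the sensors ATF6, IRE1 and PERK. ATF6 and IRE1 raise ER chaperones through the ER stress response element. PERK and related kinases phosphorylate eIF2α, which favours translation of ATF4, and ATF4 raises Ddit3 (the transcription factor CHOP), Trib3 and genes of amino acid supply. Hmox1, haem oxygenase 1, answers mainly to NRF2, the factor of oxidative stress. ATF4 is set largely by translation, so an mRNA array reads only part of that arm.

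The promoters of Hspa1b, Hspb1 and Hspa5 held a motif of these responses and are shown because these genes represent the cytosolic and ER responses below. RefSeq windows (GRCm38.p6) of 300 bases, from 250 before to 50 after the gene start, were at hand for 7 of the 10 genes. They were searched on both strands for GAANNTTC and TTCNNGAA (pairs of inverted heat shock repeats), the ER stress response element (CCAAT, a spacer and CCACG), TGATGNAAT (the C/EBP-ATF composite core) and TGACNNNGC (the antioxidant response core). Sequences read 5′ to 3′ on the gene's strand, and capitals mark the matches. The Hspa1b window is chr17:34959189-34959488 on the minus strand, the Hspb1 window chr5:135887669-135887968 on the plus strand and the Hspa5 window chr2:34771840-34772139 on the plus strand.
Hspa1b: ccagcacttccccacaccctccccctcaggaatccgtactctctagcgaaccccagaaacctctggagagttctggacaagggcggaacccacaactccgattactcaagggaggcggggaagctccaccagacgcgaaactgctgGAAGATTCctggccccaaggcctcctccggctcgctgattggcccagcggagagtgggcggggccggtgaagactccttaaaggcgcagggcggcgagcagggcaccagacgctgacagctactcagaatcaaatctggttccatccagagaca
Hspb1: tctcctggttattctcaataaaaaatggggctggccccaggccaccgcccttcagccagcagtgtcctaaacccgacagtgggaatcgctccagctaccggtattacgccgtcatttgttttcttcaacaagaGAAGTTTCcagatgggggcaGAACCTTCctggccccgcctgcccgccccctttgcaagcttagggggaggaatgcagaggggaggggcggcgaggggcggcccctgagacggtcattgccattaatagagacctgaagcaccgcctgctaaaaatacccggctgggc
Hspa5: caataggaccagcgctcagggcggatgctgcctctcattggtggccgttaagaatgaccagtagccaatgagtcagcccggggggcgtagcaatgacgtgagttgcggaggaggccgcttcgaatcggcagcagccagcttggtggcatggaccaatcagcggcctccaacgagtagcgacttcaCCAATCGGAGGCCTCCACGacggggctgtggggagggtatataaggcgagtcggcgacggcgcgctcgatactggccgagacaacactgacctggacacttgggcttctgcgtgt

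The Hspa1b match lies 97 to 104 bases before the gene start, those of Hspb1 110 to 117 and 90 to 97 bases before it, and that of Hspa5 47 to 65 bases before it. Of 32851 promoter windows in the table, 7.86% held GAANNTTC, 8.52% TTCNNGAA, 0.119% the ER element, 0.965% the composite core and 12.4% the antioxidant core. Among the other members, 1 of the 2 Dnajb1 windows held an antioxidant core 7 to 15 bases before the gene start, and the windows of Ddit3, Trib3 and Atf4 held none of these letters. Hspa8, Hsp90aa1 and Hmox1 had no window. A match is a description of the letters and not a shown binding site.

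The arrays differed between groups in ways that stand beside every comparison with ES cells. The 3′ control for 18S ribosomal RNA read 5.86 to 6.60 in ES cells, 15.45 to 15.51 in MN cultures and 15.32 to 15.42 in Cdx2/FGF cultures (log2). In the Actb control, the 3′ minus the 5′ level came to 1.87 to 2.30 in ES cells, -0.049 to -0.026 in MN cultures and -0.097 to -0.011 in Cdx2/FGF cultures. The part of these differences in the results was not tested. The median SD over tested probe sets was 0.402, 0.156 and 0.121 in the same order. The induced gene Cdx2 read 2.17 on each ES array, 2.17 to 2.24 in MN cultures and 8.27 to 8.99 in Cdx2/FGF cultures by 1 of its probe sets. The other read 2.63 to 2.70 on 2 ES arrays and 4.56 on ES replicate 3, 2.63 in MN cultures and 6.39 to 7.11 in Cdx2/FGF cultures. Of 8 ES markers, 8 exceeded 4 on all ES arrays and 2 on all arrays of either day 5 group. Of 8 motor neuron markers, 7 exceeded 4 on all MN arrays and 6 on all Cdx2/FGF arrays, while Chat, the gene of the acetylcholine-making enzyme, read 2.17 in every group.

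The levels below are log2 expression values, which start at a floor of 2.165 and end at 16.12. A probe set was tested where it exceeded 4 on at least 3 of the 9 arrays, and 20 of the 27 were, covering all 10 genes. A call required an adjusted p under 0.05 (limma, Benjamini-Hochberg over 21557 probe sets) and a difference of at least 1, which is 2-fold. Between MN cultures and ES cells 9 of the 20 were called, 1 higher and 8 lower, or 45%, against 59.9% of all probe sets (31.9% higher and 28% lower). In the comparison of the day 5 groups 3 were called, all higher in Cdx2/FGF cultures, or 15%, against 19.4% (10.9% higher and 8.55% lower). Between Cdx2/FGF cultures and ES cells 7 were called, 1 higher and 6 lower, or 35%, against 56.1% (31.4% higher and 24.7% lower). Counted by probe set with both directions together, the members were thus called no more often than probe sets at large. By direction, 40% in MN and 30% in Cdx2/FGF cultures were lower than in ES cells, against 28% and 24.7% of all. Between the day 5 groups 15% were higher, against 10.9%. The opposite directions had 5%, 5% and 0%, against 31.9%, 31.4% and 8.55%. Counted by gene with both directions together, the shares were 60%, 20% and 50%, near the 56.6%, 19.6% and 52.6% of all genes. By direction, the shares of genes leaned the same way as those of probe sets and are given further below. The comparisons share groups: MN arrays serve in both comparisons of MN cultures, and ES arrays in both comparisons with ES cells. The median difference of the 20 was -0.59, 0.27 and -0.65 in these comparisons, beside 0.10, 0.04 and 0.14 over all probe sets.

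**Figure D1:**
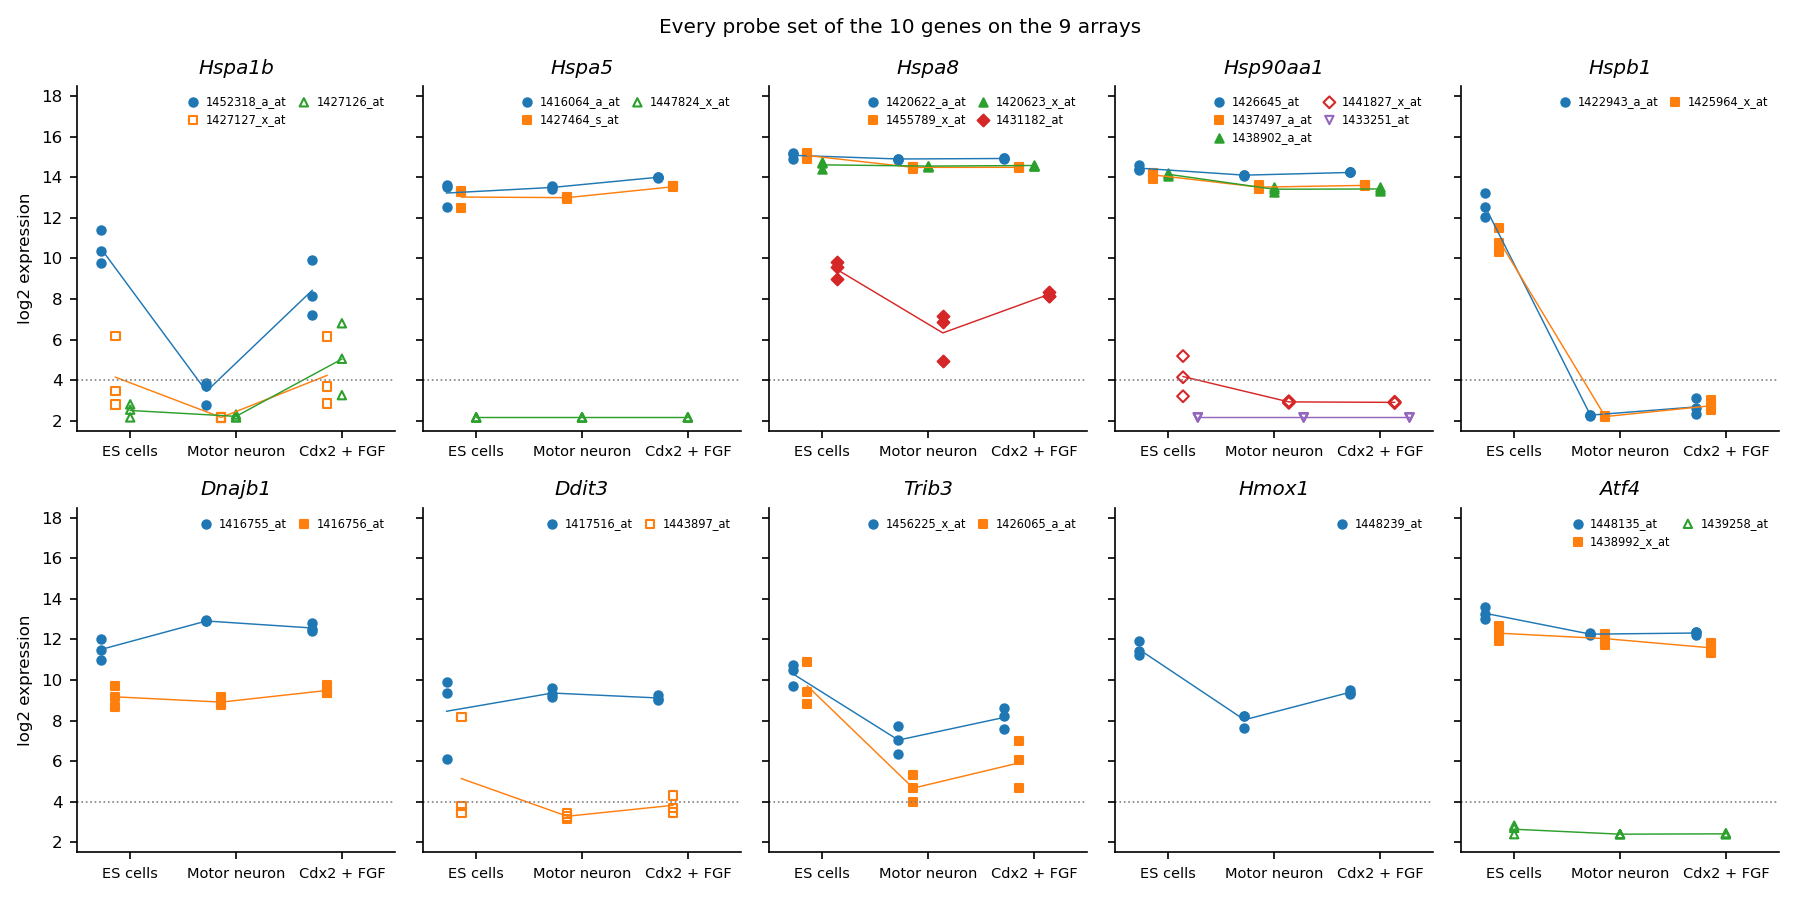
Log2 expression (vertical axis) of the 27 probe sets of the 10 genes on each of the 9 arrays, by group. Each point is 1 array, lines join group means, filled points are tested probe sets, open points are untested ones and the dotted line is the level of 4. Hspb1 drops from above 10 to under 4 in both day 5 groups, while Hspa1b drops in MN cultures and stands between 7.23 and 9.93 in Cdx2/FGF cultures by its brightest probe set.

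Among the cytosolic chaperones, the inducible small heat shock protein and HSP70 genes had the members' largest differences between MN cultures and ES cells. Hspb1, which encodes the small heat shock protein HSP27, was abundant in ES cells and near the floor at day 5. Hspa1b, which encodes an inducible HSP70, was also high in ES cells and low in MN cultures, but high again in Cdx2/FGF cultures. Dnajb1, a co-chaperone of HSP70, was higher at day 5 by 1 of its 2 probe sets.

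The brighter Hspb1 probe set (1422943_a_at) read 12.54, 12.07 and 13.22 in ES cells, 2.31, 2.22 and 2.31 in MN cultures, and 2.61, 3.11 and 2.34 in Cdx2/FGF cultures. All ES arrays lay far above all day 5 arrays. The MN level was at least 391-fold lower than the ES level, counting values under 4 as 4 (measured log2 difference -10.33, SE 0.33, adjusted p = 1.08e-08). The bound was the same, 391-fold, for Cdx2/FGF cultures (log2 difference -9.92, SE 0.33, adjusted p = 1.74e-08). The second probe set (1425964_x_at) gave at least 116-fold in both comparisons. Hspb1 passed the filter only through the ES arrays, so it could hardly be tested and not differ. Between the day 5 groups its differences of 0.41 and 0.53 (adjusted p = 0.419 and 0.246) lay wholly under 4, where no fold is given.

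The Hspa1b probe set 1452318_a_at read 11.39, 9.78 and 10.37 in ES cells, 3.72, 2.76 and 3.86 in MN cultures, and 7.23, 8.13 and 9.93 in Cdx2/FGF cultures. The MN arrays lay under all others, and the Cdx2/FGF arrays overlapped the ES arrays at 1 point, replicate 3 against ES replicate 2. MN cultures were at least 91.5-fold lower than ES cells (log2 difference -7.07, SE 0.68, adjusted p = 1.15e-05). Cdx2/FGF cultures were at least 21.6-fold higher than MN cultures (log2 difference 4.98, SE 0.68, adjusted p = 0.000606). That bound was 12.8-fold without Cdx2/FGF replicate 3 and 32.7-fold without replicate 1. Against ES cells the Cdx2/FGF level was 4.24-fold lower (log2 difference -2.08, SE 0.68, adjusted p = 0.0209), or 2.80-fold without replicate 1 and 7.14-fold without replicate 3. This last call was lost with only the 6 arrays compared (adjusted p = 0.0513), with array weights (0.157) and without the filter (0.0872), and also without ES replicate 1 (0.0769), Cdx2/FGF replicate 1 (0.081) or replicate 2 (0.0669).

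The other Hspa1b probe sets were too dim to be tested, with 2 arrays each over 4. Probe set 1427126_at read 2.81, 2.17 and 2.55 in ES cells, 2.18, 2.17 and 2.31 in MN cultures, and 3.26, 5.06 and 6.81 in Cdx2/FGF cultures. Probe set 1427127_x_at read 6.16, 2.81 and 3.48, then 2.17 on each motor neuron array, then 2.85, 3.69 and 6.16. Replicate 3 was the highest Cdx2/FGF array in all 3 probe sets, and the ES level was high on every ES array in only 1 of them. In 1427127_x_at, ES replicate 1 reached 6.16, as Cdx2/FGF replicate 3 did. Hspa1a, a neighbouring gene of nearly the same coding sequence, read 2.21, 2.17 and 2.21 in ES cells, 2.21, 2.21 and 2.17 in MN cultures, and 5.19, 6.86 and 8.16 in Cdx2/FGF cultures. It thus shared the Cdx2/FGF level with Hspa1b and not the ES level. Transcripts of such near-identical genes may cross-hybridize, so signal cannot be assigned to 1 of them with certainty.

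Dnajb1 probe set 1416755_at read 11.46, 11.01 and 12.02 in ES cells, 12.90, 12.93 and 12.89 in MN cultures, and 12.50, 12.79 and 12.39 in Cdx2/FGF cultures. All day 5 arrays lay above all ES arrays. Its level was 2.66-fold higher in MN cultures than in ES cells (log2 difference 1.41, SE 0.22, adjusted p = 0.000323). It was 2.09-fold higher in Cdx2/FGF cultures than in ES cells (log2 difference 1.06, SE 0.22, adjusted p = 0.00204), a call that ended with median centring at 0.85, without ES replicate 2 at 0.82 and without Cdx2/FGF replicate 2 at 0.95. The second probe set, 1416756_at, was not called, with log2 differences of -0.26, 0.58 and 0.32 in the 3 comparisons. The probe sets of Dnajb1 therefore did not give the same result.

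The constitutive cytosolic chaperones differed little between groups by their bright probe sets. Hspa8 encodes the constitutive HSC70 and Hsp90aa1 an HSP90. Of their 7 tested probe sets, 6 moved by less than 1 in every comparison. Hspa8 probe set 1420622_a_at read 15.19, 14.91 and 15.15 in ES cells, 14.93, 14.87 and 14.91 in MN cultures, and 14.94, 14.90 and 14.94 in Cdx2/FGF cultures. The ES arrays overlapped the others only through replicate 2.

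Some of these small shifts exceeded the spread between arrays. Hspa8 probe set 1455789_x_at was lower in MN cultures than in ES cells by a log2 difference of -0.58 (SE 0.07, adjusted p = 5.09e-05), without overlap, whereas 1420623_x_at differed by -0.06 (adjusted p = 0.514). The 3 tested Hsp90aa1 probe sets had differences of -0.35, -0.60 and -0.74 (adjusted p = 0.00201, 0.000211 and 3.35e-05), and none of them overlapped between these groups. The brightest, 1426645_at, read 14.34, 14.40 and 14.62 in ES cells, 14.13, 14.07 and 14.12 in MN cultures, and 14.24 on each Cdx2/FGF array. Between the day 5 groups the Hsp90aa1 differences were 0.13, 0.09 and 0.01, with SEs of 0.07 to 0.09 and no call.

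The fourth Hspa8 probe set stood apart. Probe set 1431182_at read 9.56, 8.98 and 9.83 in ES cells, 4.96, 6.86 and 7.17 in MN cultures, and 8.16, 8.35 and 8.16 in Cdx2/FGF cultures. The groups did not overlap. It was 8.72-fold lower in MN cultures than in ES cells (log2 difference -3.12, SE 0.52, adjusted p = 0.000444), or 5.43-fold without MN replicate 1. It was 3.72-fold higher in Cdx2/FGF cultures than in MN cultures (log2 difference 1.89, SE 0.52, adjusted p = 0.0232), or 2.32-fold without that array. The latter call was lost without any 1 of the Cdx2/FGF arrays (adjusted p = 0.0661, 0.0772 and 0.0649) and without the filter (0.0954). Its difference from ES cells in Cdx2/FGF cultures, -1.23, missed the test (adjusted p = 0.0582), and passed with quantile normalization repeated, median centring, only the 6 arrays, and without MN replicate 1 or 3. The probe sets of Hspa8 therefore disagreed.

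Hspa5, the gene of the ER chaperone BiP, was highest in Cdx2/FGF cultures without reaching a call. Probe set 1416064_a_at read 13.62, 12.56 and 13.50 in ES cells, 13.40, 13.54 and 13.56 in MN cultures, and 14.01, 13.98 and 14.02 in Cdx2/FGF cultures. All Cdx2/FGF arrays lay above all others in this probe set and in 1427464_s_at. The log2 difference from MN cultures was 0.50 (SE 0.23, adjusted p = 0.146) and 0.54 (SE 0.19, adjusted p = 0.0629) in these probe sets. From ES cells it was 0.78 (SE 0.23, adjusted p = 0.0138) and 0.51 (SE 0.19, adjusted p = 0.0366), past the p threshold and under the size of 1. MN cultures and ES cells overlapped, with differences of 0.28 and -0.03. The remaining probe set, 1447824_x_at, read 2.17 on every array.

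The arm of eIF2α and ATF4 gave lower Trib3 in both day 5 groups, lower Atf4 in MN cultures and no call for Ddit3. Atf4 is the transcription factor of the arm, Ddit3 encodes CHOP, which ATF4 induces, and Trib3 encodes a pseudokinase induced by both. Trib3 probe set 1456225_x_at read 9.68, 10.74 and 10.51 in ES cells, 7.06, 6.33 and 7.72 in MN cultures, and 7.59, 8.63 and 8.25 in Cdx2/FGF cultures. The ES arrays lay above all others, and the day 5 groups overlapped. It was 9.68-fold lower in MN cultures than in ES cells (log2 difference -3.28, SE 0.43, adjusted p = 9.07e-05) and 4.46-fold lower in Cdx2/FGF cultures (log2 difference -2.16, SE 0.43, adjusted p = 0.00146). Between the day 5 groups its difference of 1.12 was not called (SE 0.43, adjusted p = 0.0833), though it passed with array weights (1.30, adjusted p = 0.0105) and without MN replicate 3 (1.46, adjusted p = 0.0442). This probe set is of the kind that may also bind transcripts of other genes.

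Trib3 probe set 1426065_a_at read 8.81, 10.87 and 9.42 in ES cells, 4.68, 3.999 and 5.33 in MN cultures, and 4.68, 6.99 and 6.07 in Cdx2/FGF cultures. It pointed the same way as the other, with all ES arrays on top. The MN level was at least 32.7-fold lower (log2 difference -5.03, SE 0.68, adjusted p = 0.000117), or 21.8-fold without ES replicate 2. The Cdx2/FGF level was 13.8-fold lower (log2 difference -3.79, SE 0.68, adjusted p = 0.000816), or 9.21-fold without ES replicate 2 and 9.01-fold without Cdx2/FGF replicate 1.

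Atf4 itself sat at the 2-fold line. Probe set 1448135_at read 13.27, 13.58 and 13.02 in ES cells, 12.24, 12.30 and 12.24 in MN cultures, and 12.35, 12.38 and 12.22 in Cdx2/FGF cultures. Every ES array lay above every day 5 array. The difference was -1.03 in MN cultures (SE 0.13, adjusted p = 7.43e-05), which was called, and -0.98 in Cdx2/FGF cultures (SE 0.13, adjusted p = 0.000121), which missed the size of 1. The first call was lost with quantile normalization repeated (-0.995) and without ES replicate 2 (-0.89). The second was gained with median centring (-1.19), without ES replicate 3 (-1.11) and without Cdx2/FGF replicate 2 (-1.01). Between the day 5 groups the difference was 0.06 (SE 0.13, adjusted p = 0.83). Probe set 1438992_x_at gave -0.27 and -0.72 against ES cells, with no call, and 1439258_at was under 4 on all arrays.

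Ddit3 was measured by 1417516_at at 9.36, 9.90 and 6.11 in ES cells, 9.59, 9.32 and 9.16 in MN cultures, and 9.26, 9.05 and 9.03 in Cdx2/FGF cultures. ES replicate 3 was far below the other 8 arrays. The MN minus ES difference was 0.90 (SE 0.81, adjusted p = 0.336), and -0.28 with that array left out. The Cdx2/FGF minus ES difference was 0.66 (SE 0.81, adjusted p = 0.49), and -0.52 without it. The second probe set, 1443897_at, read 8.18 on ES replicate 2 and from 3.15 to 4.30 on the other arrays, so the ES arrays disagreed there as well. No difference in Ddit3 could be resolved at this spread.

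Hmox1, which breaks down haem, fell at day 5 and was less low with Cdx2 and FGF. Its only probe set, 1448239_at, read 11.43, 11.23 and 11.90 in ES cells, 7.66, 8.22 and 8.23 in MN cultures, and 9.35, 9.32 and 9.52 in Cdx2/FGF cultures. The 3 groups did not overlap. MN cultures were 11.2-fold lower than ES cells (log2 difference -3.48, SE 0.23, adjusted p = 8.35e-07). Cdx2/FGF cultures were 4.36-fold lower than ES cells (log2 difference -2.13, SE 0.23, adjusted p = 2.71e-05). They were 2.56-fold higher than MN cultures (log2 difference 1.36, SE 0.23, adjusted p = 0.002). All 3 calls held under every alternative tried.

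**Figure D2:**
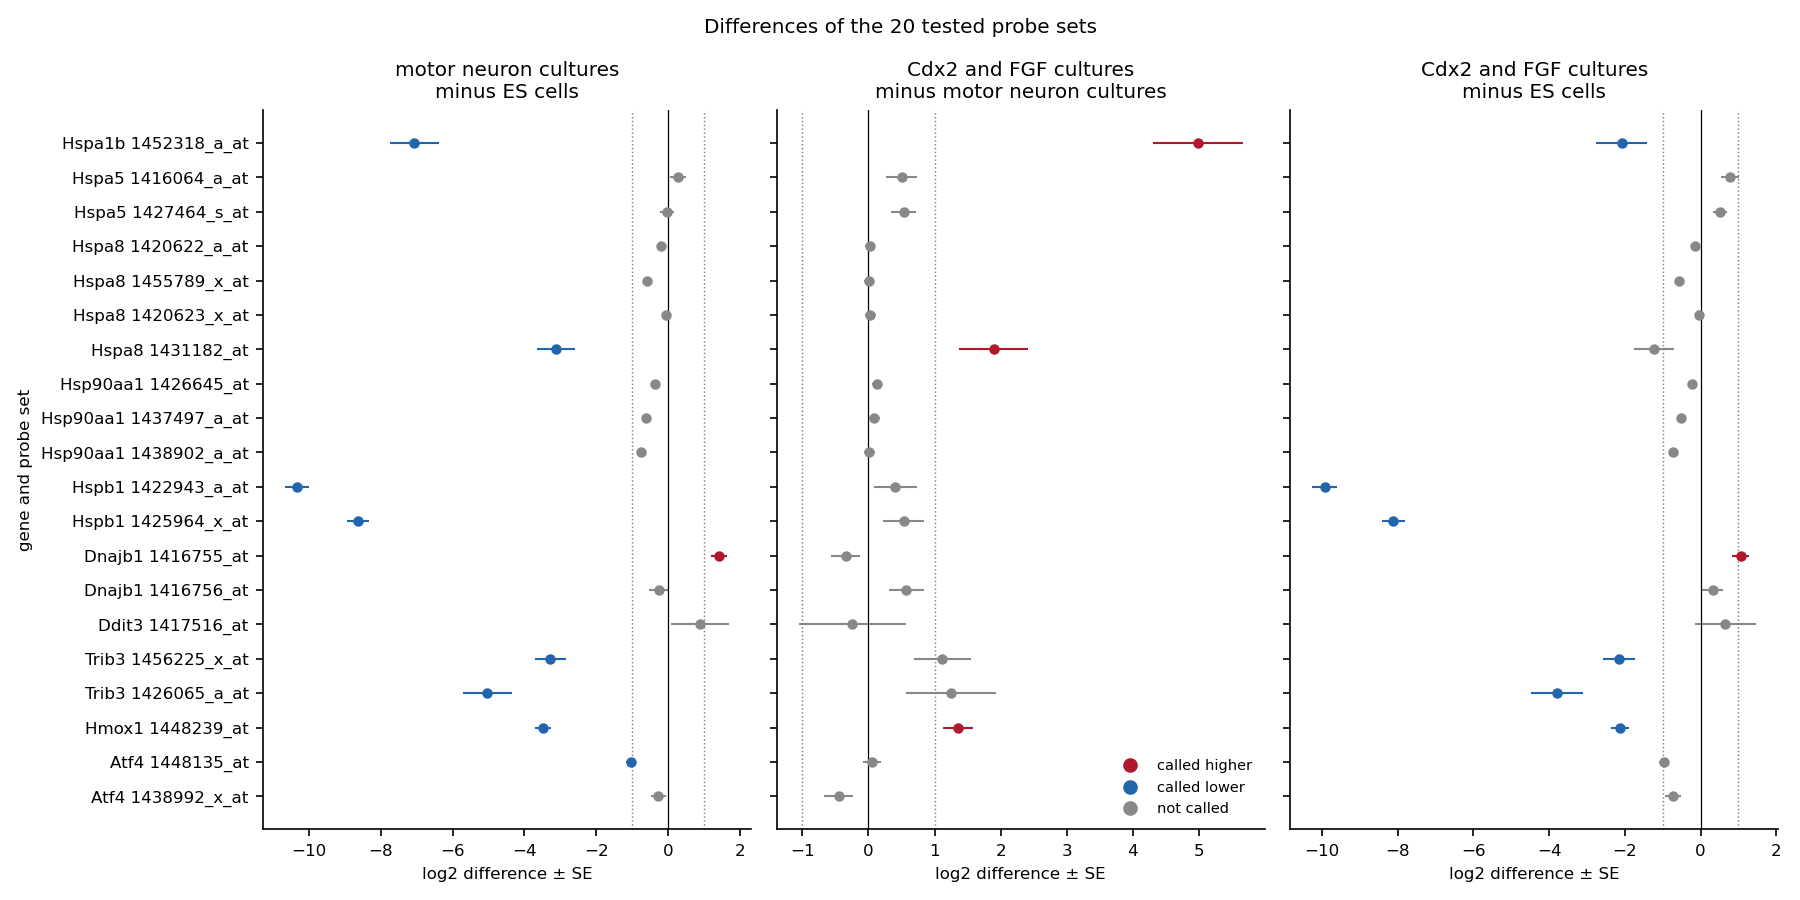
Log2 difference with its SE (horizontal axis) of the 20 tested probe sets in each of the 3 comparisons, 1 row a probe set. Red marks a call higher, blue a call lower, grey no call, and the dotted lines a difference of 1; each panel has its own scale. The Hspb1 and Hspa1b points lie farthest to the left in the first panel, and Hspa1b at 4.98 farthest to the right in the second.

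Seen by gene, through the probe set with the highest mean, 6 of 10 genes were called between MN cultures and ES cells (Dnajb1 higher, and Hspa1b, Hspb1, Trib3, Hmox1 and Atf4 lower), against 56.6% of 10912 genes. Hspa1b and Hmox1 were called between the day 5 groups, both higher, against 19.6% of all genes in either direction and 11.1% higher. Between Cdx2/FGF cultures and ES cells 5 were called (Dnajb1 higher, and Hspa1b, Hspb1, Trib3 and Hmox1 lower), against 52.6%. By direction, 50% of the members in MN and 40% in Cdx2/FGF cultures were lower than in ES cells, against 30.7% and 27.2% of all genes. The share higher than in ES cells was 10% in each, against 25.9% and 25.4%. Between the day 5 groups 20% were higher and 0% lower, against 11.1% and 8.53%. Profiles over the 9 arrays were set against those of the other members and of the listed pathway genes by root-mean-square distance, after centring each on its mean. Trib3 and Hmox1 were nearest to each other (0.547 on the log2 scale). The nearest to Hspa1b was Cryab, a small heat shock protein gene, at 1.24, and to Hspb1 it was Cth, a gene of cysteine synthesis, at 1.26. Hsp90aa1 was nearest to the chaperonin gene Cct2 (0.056), Atf4 to the mitochondrial HSP70 gene Hspa9 (0.162) and Hspa5 to the mitochondrial chaperonin gene Hspd1 (0.194). Hspa8 was nearest to Hspb2 (0.109), which lay at the floor on all arrays: for members that vary little, such as Hspa8, any flat profile is near, so a small distance says little there.

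Markers of other cell types also differed between the groups. The summed level of 12 fibroblast markers, as log2 of the sum, was 10.42, 13.11 and 13.39 in ES cells, 5.86, 5.85 and 6.27 in MN cultures and 10.35, 10.34 and 10.57 in Cdx2/FGF cultures. Of these markers 2 exceeded 4 on all ES arrays, 0 on all MN arrays and 5 on all Cdx2/FGF arrays, and Lum read 2.17 in every group. In Cdx2/FGF cultures 7 of the 12 lay under 4 on all arrays. Among them were S100a4 and Thy1, with means of 2.17 there and 8.50 and 7.02 in ES cells. The highest marker in Cdx2/FGF cultures was Twist2, with a mean of 9.48, and in ES cells Col1a1, with 11.09. The sums thus rested on partly different markers in these groups. For 10 mesoderm and smooth muscle markers the sum was 11.63 to 14.16, 7.87 to 8.98 and 14.83 to 14.97, while Tbx6 read 2.17 throughout. ES replicate 1 had the lowest fibroblast sum among the ES arrays. It was also the lowest ES array for both Trib3 probe sets (9.68 and 8.81), Cryab (8.35), Hspb8 (9.52) and Nqo1 (9.24), lay between the others for Hspb1 (12.54) and Hmox1 (11.43), and was the highest for Hspa1b (11.39). Neuron markers moved the other way between the day 5 groups: the sum of 8 was 16.03 to 16.46 in MN cultures and 13.02 to 13.19 in Cdx2/FGF cultures, against 13.19 to 13.59 in ES cells. The ES sum rested mostly on Stmn2, with a mean of 13.07 there, beside 8.99 for Tubb3, the next highest. By the median level of the 8, ES cells lay lowest, at 7.46 to 8.26. That median was 12.73 to 13.22 in MN cultures and 9.06 to 9.24 in Cdx2/FGF cultures. The mean of Dcx, a microtubule protein gene of young neurons, was 12.83 in MN cultures and 5.70 in Cdx2/FGF cultures, and that of the motor neuron gene Mnx1 10.01 and 6.54. The motor neuron markers were mixed: in the same order Slc18a3 read 11.11 and 3.93, Olig2 12.31 and 11.42, and Nkx6-1 12.04 and 12.06. The part of any of these cells in the levels of the 10 genes was not tested. In bulk RNA, fewer cells of a type and less RNA per cell cannot be told apart.

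Other chaperone genes were set beside Hspa1b, first between the day 5 groups. Of 44 listed chaperones, co-chaperones and heat shock factors, 41 had a probe set of their own and 39 were tested. With Cdx2 and FGF 6 rose over MN cultures and 2 fell (all genes: 11.1% and 8.53%), with a median difference of 0.22 beside 0.04 over all genes. The rises were in Cryab, Hspa1a, Bag3, Hspb8, Hspa12b and Hspb6. Of these, Hspa1a and Hspa12b passed the filter only through the Cdx2/FGF arrays and so had to differ. With values under 4 raised to 4, the log2 differences of Hspa12b and Hspb8 were 0.51 and 0.42, under the size of 1. Cryab, the αB-crystallin gene, read 2.30, 2.31 and 3.39 in MN cultures and 8.54, 8.82 and 8.74 in Cdx2/FGF cultures, at least 26-fold higher (adjusted p = 5.25e-05). Hspa1a was at least 6.66-fold higher, or 4.06-fold without Cdx2/FGF replicate 3 and 11.4-fold without replicate 1. Bag3, a co-chaperone of HSP70 in selective autophagy, went from 6.43, 7.28 and 7.19 to 9.70, 9.75 and 10.26, 7.66-fold higher (adjusted p = 0.000351). In ES cells Cryab (8.35 to 10.64) and Hspb8 (9.52 to 10.79) were high, as Hspa1b was. Bag3 read 6.61, 7.74 and 7.71 there, near its MN level, and Hspa1a and Hspa12b lay near the floor. Dnajb5 and Hspa12a were the 2 that fell, 2.98-fold and 6.45-fold.

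Against ES cells the same list had 13 genes higher and 5 lower in MN cultures (all genes: 25.9% and 30.7%), with a median of 0.18 beside -0.08. The falls were led by Hspb8, a small heat shock protein gene that was at least 78-fold lower (adjusted p = 3.99e-08), and by Cryab, at least 52.6-fold lower (adjusted p = 3.05e-06) and 84.5-fold without ES replicate 1. These 2 small heat shock protein genes stood low in MN cultures, as Hspb1 did. Other listed Hspb genes did not. Hspb6 read 7.18 to 8.18 in ES cells and 7.66 to 8.28 in MN cultures. Hspb11 read 9.63 to 9.78 in ES cells and 11.14 to 11.43 in MN cultures, and Hspb2 lay at the floor in both. Hsph1, an HSP110 gene, fell 2.76-fold. Among the rises were Hspa12a, at least 43.7-fold (adjusted p = 3.23e-05) or 24.9-fold without ES replicate 3, and Dnajb4, 12.5-fold (adjusted p = 2.75e-05). Hsf2 ranked between them and is given under the other observations. In Cdx2/FGF cultures 15 were higher and 5 lower than in ES cells (all genes: 25.4% and 27.2%), with a median of 0.34 beside -0.004. Hspb8 was 58.5-fold lower there, and Serpinh1, a collagen chaperone gene of the ER, 12.9-fold higher (adjusted p = 3.68e-08).

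**Figure D3:**
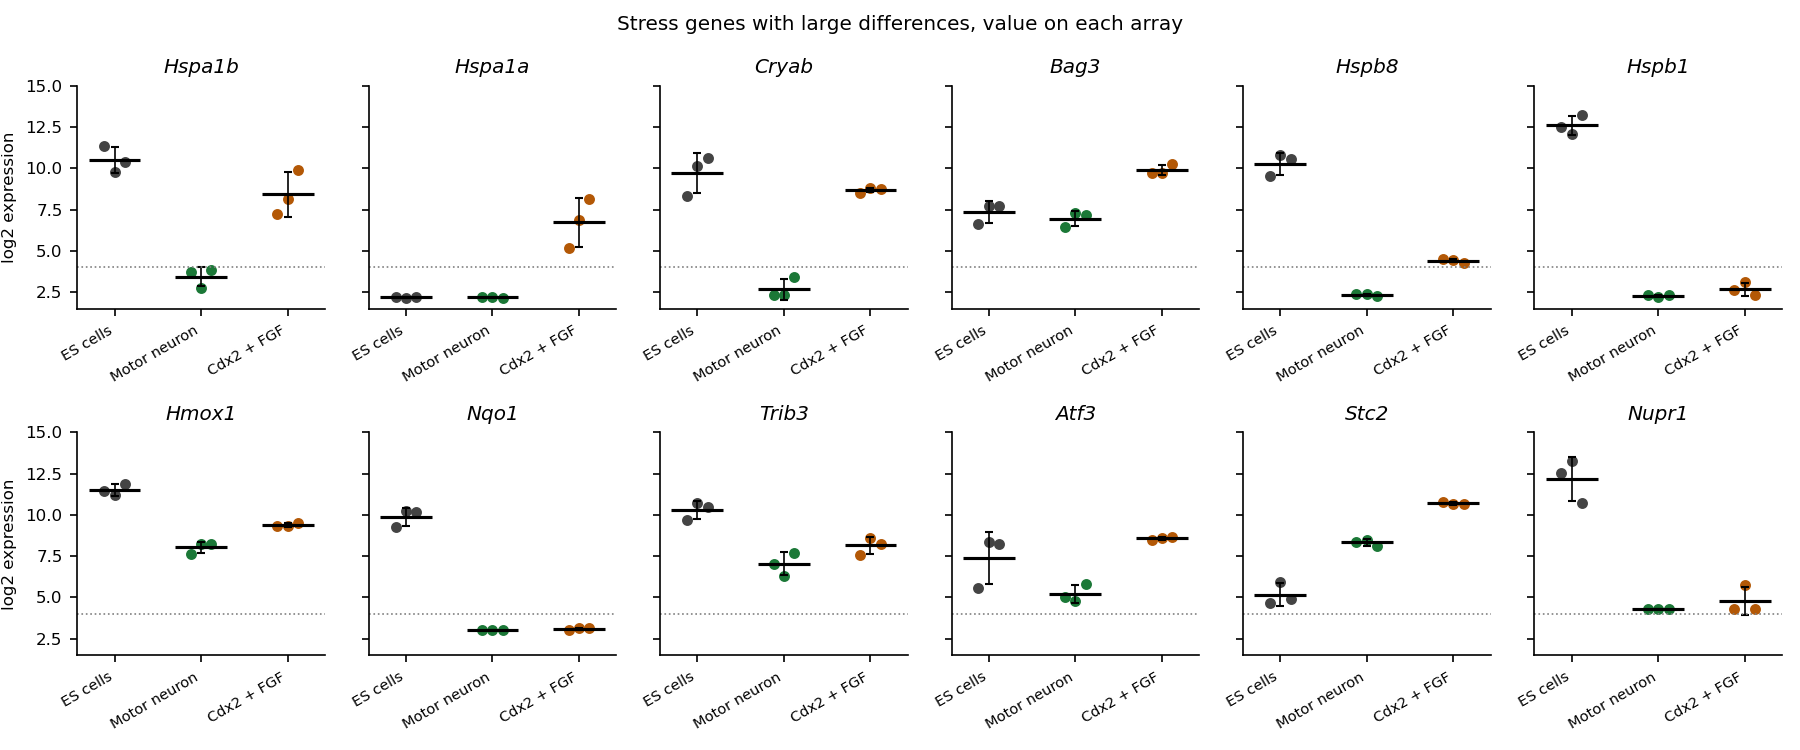
Log2 expression (vertical axis) on each array for 12 stress response genes, chosen after their values were seen, by their probe set of highest mean, with points for arrays, a wide bar for the group mean and whiskers for its SD (n = 3). Hspa1a, Cryab and Bag3 are higher in Cdx2/FGF cultures than in MN cultures, while Hspb1 and Nqo1 stay under 4 in both.

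Genes of ER folding and of the ATF6 and IRE1 arms included Sdf2l1, Atf6b and Pdia4, which rose, and Ern1, which fell. Of 33 tested out of 34, 8 were higher and 4 lower in MN cultures than in ES cells, with a median of 0.32 beside -0.08 over all genes. The share called higher, 24.2%, was near that of all genes, 25.9%, and the share called lower was 12.1% against 30.7%. Sdf2l1, which works with BiP, rose 5.34-fold (adjusted p = 1.32e-05), and the ATF6 relative Atf6b rose 5.69-fold (adjusted p = 6.61e-06). Pdia4, an ER disulfide isomerase gene, rose 7.13-fold (adjusted p = 0.0198), or 3.49-fold without ES replicate 2 and 17.5-fold without ES replicate 3. Ern1, the gene of the sensor IRE1α, fell 4.17-fold (adjusted p = 0.000172), and Mbtps2 and Derl2 fell 3.56-fold and 2.92-fold. With Cdx2 and FGF 2 genes were called higher than in MN cultures and 0 lower, or 6.06% and 0%, against 11.1% and 8.53% of all genes. At an unadjusted p under 0.05 (limma) 9 were higher and 2 lower. The median of the list was 0.20 beside 0.04 over all genes. The 2 called were Edem1, of ER-associated degradation, 2.18-fold (adjusted p = 0.00176), and the BiP co-chaperone Dnajc3, 2.04-fold (adjusted p = 0.0162). Against ES cells 11 were higher and 3 lower in Cdx2/FGF cultures (33.3% and 9.09%, against 25.4% and 27.2%), with a median of 0.50. Among the 11 was Ppib, 5.25-fold higher (adjusted p = 1.77e-07).

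Genes of the eIF2α and ATF4 arm held large falls from ES cells, in Cth, Nupr1 and Slc7a3. Of 33 tested out of 37 listed, 12 were lower and 4 higher in MN cultures, with a median of -0.59 beside -0.08. The share called lower, 36.4%, was near that of all genes, 30.7%, and the share called higher was 12.1% against 25.9%. Cth was at least 227-fold lower (adjusted p = 6.57e-09), and Nupr1, a stress-induced chromatin protein gene, at least 239-fold lower (adjusted p = 3.08e-06), or 398-fold without ES replicate 3. Nupr1 read the same 4.28 on all 3 MN arrays, so its fold is a bound. The arginine transporter gene Slc7a3 fell 25.6-fold (adjusted p = 1.4e-06). The kinase gene Eif2ak3, which encodes PERK, was lower by a log2 difference of -1.74, and its groups did not overlap. The ATF4 target gene Chac1 was lower by a log2 difference of -1.25, with overlapping groups. Stc2, a secreted glycoprotein gene, rose 8.94-fold (adjusted p = 1.57e-05) and Atf5, a relative of Atf4, 4.08-fold (adjusted p = 0.000398). In Cdx2/FGF cultures 10 were lower and 4 higher than in ES cells (30.3% and 12.1%, against 27.2% and 25.4% of all genes), with a median of -0.22.

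Of this arm 4 genes of 33 were called higher in Cdx2/FGF than in MN cultures and 0 lower, with a median of -0.03. At an unadjusted p under 0.05 (limma) 6 were higher and 2 lower. The share called higher, 12.1%, was near that of all genes, 11.1%. Atf3, an early stress-induced transcription factor gene, went from 5.01, 4.78 and 5.82 to 8.48, 8.59 and 8.67, 10.4-fold higher (adjusted p = 0.00477). Stc2 rose 5.21-fold (adjusted p = 0.000537) and Eif4ebp1, a translation repressor gene, 2.04-fold (adjusted p = 0.00666). Cth was called too, but its MN values lay under 4, and with those raised to 4 the log2 difference was 0.91. Asns, a much used ATF4 target gene, differed by -0.006 and was not called, like Atf4 and Ddit3.

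Among the antioxidant genes around Hmox1, those called at day 5 were lower than in ES cells, except Hmox2. Of 24 listed genes 20 were tested, and 9 were lower and 0 higher in MN cultures (limma, with 11 lower and 2 higher at an unadjusted p under 0.05), with a median of -0.67 beside -0.08. That is 45% lower, against 30.7% of all genes lower and 25.9% higher. Nqo1, a quinone reductase gene and NRF2 target, was at least 59.2-fold lower, having passed the filter only through the ES arrays, where it had to differ. Also lower were the glutathione reductase gene Gsr, 4.75-fold (adjusted p = 3.94e-07), and Blvra, which acts after haem oxygenase, by 4.63-fold (adjusted p = 2.2e-05). Nfe2l2, the gene of NRF2, was lower by a log2 difference of -1.45. In Cdx2/FGF cultures 8 were lower and 1 higher than in ES cells (40% and 5%, against 27.2% and 25.4% of all genes), with a median of -0.60. The gene that was higher was Hmox2, the constitutive haem oxygenase gene, 2.21-fold (adjusted p = 1.37e-05). Between the day 5 groups Gclm rose 2.94-fold (adjusted p = 0.0489) and Srxn1 fell 3.89-fold (adjusted p = 0.000126), and Nqo1 stayed under 4. That is 5% higher and 5% lower, against 11.1% and 8.53% of all genes. At an unadjusted p under 0.05 (limma), 5 of the 20 were higher and 1 lower.

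**Figure D4:**
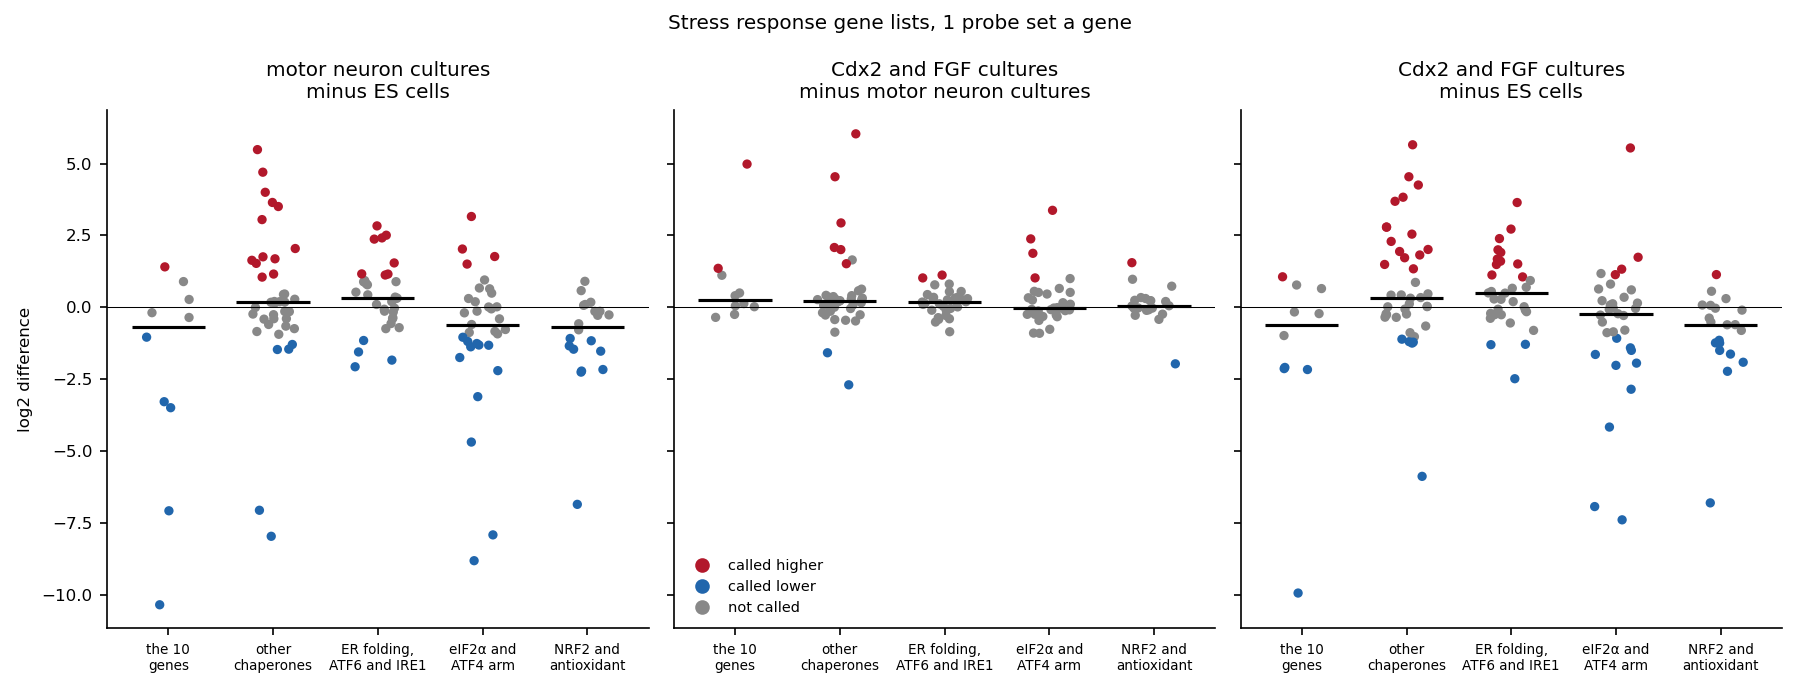
Log2 difference (vertical axis) of each tested gene by its probe set of highest mean, in the 10 genes and the 4 pathway lists, for the 3 comparisons. Points are genes, red called higher, blue called lower and grey not called, and the black bar is the list median. In the first panel the medians of the eIF2α and NRF2 lists lie at -0.59 and -0.67, and those of the other chaperones and ER genes at 0.18 and 0.32.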

How the data were processed

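Per the labels' protocols, NuGen Ovation reagents amplified the RNA before hybridization. The authors deposited 1 log2 expression value per probe set and array. The submitters' processing notes list GCRMA and limma and no options. That the scale is log2 follows from the range, 2.165 to 16.12. Gene names came from the platform annotation: 34958 probe sets named 1 gene, 932 several and 9211 none. Group means of all 9 arrays were fitted with limma 3.58.1 (lmFit, eBayes with intensity trend) in R 4.3.3, with 6 residual degrees of freedom, and the fit was tested on simulated data. The number of arrays limits the precision. The members, gene lists, motifs and tests were chosen with earlier results of these data known. Each listed gene was represented by its probe set of highest mean, and 131 of 139 listed pathway genes had one. The genes named from a list were, in each direction, up to 3 called genes with the largest change whose groups did not overlap, ranked with values under 4 raised to 4; further list genes were chosen after their values were seen. Folds are bounds, marked "at least", where any array of the dimmer group lay under 4. Lists are described by counts and medians, without a set test.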

Additional observations from a re-analysis of the deposited data

How the results depend on the processing

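Of 1212 values of single member probe sets under the alternatives, 1187 kept their call, 15 lost it, 10 gained one and 0 reversed; 25 uncalled values changed sign. The alternatives were repeated quantile normalization, median centring, no filter or a filter at 6, low values raised to 4, other variance priors, array weights, fewer arrays or probe sets, the replicate block and leaving out each array. The number of member genes called between Cdx2/FGF cultures and ES cells went from 5 to 3 when all probe sets of each gene were averaged. With 1 array left out and the same probe sets tested, the member probe sets called numbered 8 to 9, 2 to 4 and 6 to 8 in the 3 comparisons, the member genes 5 to 6, 2 to 3 and 4 to 6, and all probe sets 12487 to 12939, 3415 to 4446 and 11597 to 12135. Arrays with the same replicate number deviated together little (correlation over 0.1 in 1 of 9 pairs, from -0.028 to 0.106). Between MN and Cdx2/FGF arrays the correlations were 0.035, 0.106 and 0.070. Arrays of different number were not compared, so this cannot say whether the numbers pair cultures. With the replicate block 9, 3 and 7 member probe sets were called, as without it, and 12927, 4126 and 12100 of all. Median centring, done on the tested probe sets (chosen after seeing the data), took the median of all differences from 0.10 to -0.01, from 0.04 to -0.06 and from 0.14 to -0.08, so differences of that size have no settled direction. Low signal limits Hspb1, Hspa1b and the 7 untested probe sets, and 3 arrays a group limit all of them.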

Other observations

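Some chaperone genes varied strongly among the ES arrays, and these were not described above. Hsf2, a heat shock factor gene active in development, rose at least 13.8-fold in MN cultures (adjusted p = 0.00766), with an ES SD of 3.24; the bound was 37-fold without ES replicate 3 and 8.46-fold without replicate 1 or 2. Bag2, a co-chaperone of HSC70, was at least 29.5-fold higher in Cdx2/FGF cultures than in ES cells (adjusted p = 0.000151), or 48.2-fold without ES replicate 3. Hspa4l, an HSP110 relative, was 14.2-fold higher there (adjusted p = 0.000189), or 24.3-fold without ES replicate 1. The stress kinase gene Eif2ak2 was lower than in ES cells in both day 5 groups, by log2 differences of -3.10 and -2.84.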
